A study of Homo sapiens with 15 samples.

Results

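Across 15 A549 tumours grown in mice, 10 human genes known as targets of the FOXO transcription factors were followed from tumour to tumour: IRS2, PIK3IP1, FOXO3, DEPP1, PCK1, TXNIP, CCNG2, BCL6, FBXO32 and KLHL24. The genes were listed by symbol, and each was matched to its human row in the table of gene counts. All 10 were found among 60649 human rows and all 10 passed the filter on low counts, which left 15435 human genes. The genes were chosen by their known regulation by FOXO together with earlier fold changes and adjusted p-values of these tumours against unstressed mice, among them those of DEPP1 and PCK1. Their differences from the no-stress group, and the number of them called there, are therefore a description of rows from a fit across all genes and are no independent evidence of a direction.

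FOXO factors switch on genes of fasting, growth arrest and protein breakdown. When insulin or a related growth factor is bound at its receptor, docking proteins such as IRS2 recruit PI3-kinase, AKT is activated, and AKT phosphorylates FOXO proteins so that they leave the nucleus. When that signal is low, FOXO proteins stay in the nucleus and their targets are transcribed. Several targets feed back on the pathway itself. The label of low insulin signalling comes from this textbook account. Insulin, AKT activity and the location of FOXO proteins were not measured in these tumours.

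A549 is an established human lung adenocarcinoma line. The cells were placed under the skin of nude mice of the BALB/c strain, whose lack of a working thymus leaves them without mature T cells. Stress mice (n = 5) were restrained, which stresses rodents psychologically, 7 days before the cells were placed, and post-stress mice (n = 5) were restrained 12 days afterwards. No-stress mice (n = 5) were not restrained. The labels do not say whether 7 and 12 are durations or starting days, nor the age or sex of the mice, so the timing and perhaps the length of restraint differ between both restrained groups. All tumours come from a single cell line, and each gave 1 RNA-seq library.

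Counts on human genes ranged from 12877165 to 15892705 per library. Levels are given as CPM, counts scaled to library size within the human genes by TMM. Mouse genes of the host took 18.6% to 24.6% of all counts in stress tumours, 12.4% to 23.0% in post-stress tumours and 15.6% to 30.2% in no-stress tumours, with the highest shares in no-stress tumours 1 and 5. The human RNA carried the genes that mark A549, with KRT8 at mean levels of 3846 CPM in stress, 3777 CPM in post-stress and 3469 CPM in no-stress tumours. Of 14 such genes 13 could be tested, and KRT19 stayed under 1 CPM throughout. KRT8 was 1 of only 3 of the 13 with a positive log2 fold change for stress against no stress. The median was -0.24 and none was called higher by edgeR. It called 2 of the 13 lower, among them the aldehyde dehydrogenase ALDH3A1 (adjusted p = 0.044), beside 5.22% of all tested genes. Of the 13, 8 had an unadjusted p under 0.05, beside 26.1% of all tested genes. The part of these shifts in the results below was not tested. CDKN2A and CDKN2B, which A549 has lost, summed to 0 to 2.43 CPM in stress, 0 to 0.842 CPM in post-stress and 0 CPM in all no-stress tumours. The source of these counts was not tested. Of 21 human leukocyte and stroma genes, 12 were under 1 CPM in every tumour, with MS4A1 at 0. The 21 summed to 130 to 186 CPM in stress, 94.9 to 232 CPM in post-stress and 123 to 220 CPM in no-stress tumours. The collagen gene COL1A1 was the highest of them in every tumour. None of the 8 that could be tested was called by edgeR in any comparison. Against no stress, the unadjusted p was under 0.05 for 1 in stress and 2 in post-stress, beside 26.1% and 15.2% of all tested genes.

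FOXO proteins can bind in the sequence before a gene's start, and sites farther away were not searched here. RefSeq promoters of GRCh38.p14, from 250 bases before to 50 bases after the start, were matched for 8 of the 10 genes, with PCK1 and FBXO32 not analysed here. A forkhead site written GTAAACA and an insulin response site written CAAAACA were searched on both strands, and these motifs share no overlapping match. The promoters of DEPP1, TXNIP, IRS2 and KLHL24 are shown because each holds a match, in capitals. In IRS2 and KLHL24 the match lies on the other strand and therefore reads TGTTTTG.
DEPP1: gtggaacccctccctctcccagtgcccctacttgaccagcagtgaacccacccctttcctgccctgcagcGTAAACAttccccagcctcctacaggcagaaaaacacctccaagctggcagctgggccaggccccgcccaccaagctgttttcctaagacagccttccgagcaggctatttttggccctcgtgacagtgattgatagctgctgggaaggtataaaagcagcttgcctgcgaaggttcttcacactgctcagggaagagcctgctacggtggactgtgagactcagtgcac
TXNIP: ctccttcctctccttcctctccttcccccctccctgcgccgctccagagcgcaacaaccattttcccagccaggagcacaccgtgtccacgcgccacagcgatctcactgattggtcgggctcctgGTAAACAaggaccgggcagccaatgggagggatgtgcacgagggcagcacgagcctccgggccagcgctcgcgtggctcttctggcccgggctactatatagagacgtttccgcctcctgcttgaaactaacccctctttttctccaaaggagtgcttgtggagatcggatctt
IRS2: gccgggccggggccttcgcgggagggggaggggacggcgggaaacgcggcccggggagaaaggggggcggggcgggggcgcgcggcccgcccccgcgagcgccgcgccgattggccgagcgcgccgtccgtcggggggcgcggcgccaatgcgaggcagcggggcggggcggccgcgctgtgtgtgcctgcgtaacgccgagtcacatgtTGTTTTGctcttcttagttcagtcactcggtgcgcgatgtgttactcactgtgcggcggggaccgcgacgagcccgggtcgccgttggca
KLHL24: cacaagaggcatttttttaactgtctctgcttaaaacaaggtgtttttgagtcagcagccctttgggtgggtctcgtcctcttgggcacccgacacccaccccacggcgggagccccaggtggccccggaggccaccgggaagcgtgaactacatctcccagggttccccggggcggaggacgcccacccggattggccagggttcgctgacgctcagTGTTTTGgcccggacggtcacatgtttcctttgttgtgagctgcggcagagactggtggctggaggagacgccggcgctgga
The windows are chr10:44978760-44979059 (minus strand) for DEPP1, chr1:145996530-145996829 (minus strand) for TXNIP, chr13:109786534-109786833 (minus strand) for IRS2 and chr3:183635373-183635672 (plus strand) for KLHL24.

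GTAAACA was present in 2 of the 8 promoters, 180 bases before the start of DEPP1 (position -180) and at position -124 of TXNIP. It is present in 3.42% of all 35116 promoters of the same length. CAAAACA was likewise present in 2 of 8, at position -40 of IRS2 and -32 of KLHL24, against 4.92% of all promoters. Read on the gene's own strand alone, the forkhead count stayed at 2 and the insulin response count was 0. The cyclic AMP site TGACGTCA was in none of the 8 and in 1.85% of all promoters. The glucocorticoid receptor motif AGAACA was found in PIK3IP1 alone (14.8% of all promoters), the hypoxia sites ACGTGC in CCNG2 (6.89%) and GCGTGC in FOXO3 (13.4%), and the E-box CACGTG in CCNG2 (7.26%), where it shares bases with the ACGTGC match. GC content was 57.3% for DEPP1, 60.3% for TXNIP, 75.7% for IRS2 and 62.0% for KLHL24, against a median of 58.7% over all promoters. These are matches of letters and not measured binding.

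IRS2, the docking protein that carries the signal from the insulin receptor to PI3-kinase and whose gene is raised by FOXO in fasted liver, lies at chr13:109752698-109786568 (minus strand, GENCODE 29 on GRCh38, as for the other genes). It stood at 197, 231, 166, 185 and 188 CPM in stress tumours 1 to 5, at 217, 191, 154, 122 and 112 CPM in post-stress tumours, and at 101, 146, 106, 144 and 127 CPM in no-stress tumours. Every stress tumour was above every no-stress tumour, whereas post-stress tumours 4 and 5 lay within the no-stress range. The stress to no-stress ratio was 1.55 (95% interval 1.21 to 1.98), and that of post-stress to no stress was 1.27 (0.997 to 1.63). In bulk tissue a change in the share of cells with this RNA and a change in RNA per cell cannot be told apart.

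PIK3IP1, a membrane protein that inhibits PI3-kinase and so damps the same pathway, lies at chr22:31281593-31292534 (minus strand) and had the fewest counts, 364 in all 15 libraries. Its levels were 2.03, 1.81, 1.82, 1.96 and 2.96 CPM in stress tumours, 1.73, 1.85, 1.33, 1.30 and 1.21 CPM in post-stress tumours, and 0.421, 2.19, 1.18, 1.43 and 2.23 CPM in no-stress tumours. The no-stress group spans all other values but that of stress tumour 5. The ratios were 1.42 (95% interval 0.884 to 2.28) for stress and 0.998 (0.613 to 1.62) for post-stress, each against no stress.

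FOXO3 (chr6:108559835-108684774, plus strand) encodes a FOXO factor and is itself induced by FOXO proteins. It had 39.9, 42.0, 42.1, 47.5 and 35.2 CPM in stress tumours, 50.6, 45.7, 32.9, 38.9 and 47.6 CPM in post-stress tumours, and 30.1, 34.4, 33.7, 30.4 and 37.1 CPM in no-stress tumours. The groups overlapped through 1 tumour each, stress tumour 5 and post-stress tumour 3. The ratio to no stress was 1.25 (95% interval 1.06 to 1.47) for stress and 1.30 (1.11 to 1.53) for post-stress. FOXO3B, a near-identical copy of FOXO3 named here after its values were seen, stood at 7.20 to 9.40 CPM in stress, 7.56 to 11.7 CPM in post-stress and 10.4 to 12.4 CPM in no-stress tumours. Its log2 fold change was -0.57 for stress (edgeR adjusted p = 0.0147; 0.0551 without no-stress tumours 1 and 5) and -0.23 for post-stress (adjusted p = 0.428). How reads were split between both copies is not given in the sources used here. The sum of both was 49.2 ± 5.15 CPM in stress, 53.0 ± 7.26 CPM in post-stress and 44.8 ± 3.87 CPM in no-stress tumours (SD, n = 5 each).

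DEPP1, a fasting-induced regulator of autophagy, lies at chr10:44970981-44978810 (minus strand) and had the largest ratios to the no-stress group of the 10 genes. It stood at 28.9, 18.1, 27.9, 22.6 and 33.2 CPM in stress tumours, at 34.9, 14.4, 18.2, 16.5 and 6.84 CPM in post-stress tumours, and at 0.913, 3.39, 1.67, 2.87 and 4.54 CPM in no-stress tumours. All 10 tumours of restrained mice lay above all 5 no-stress tumours, and post-stress tumour 1 was the highest of all 15. The ratio was 9.80 (95% interval 5.10 to 18.8) for stress and 6.82 (3.56 to 13.0) for post-stress. Post-stress tumours ranged widely, with an SD of 10.3 CPM around a mean of 18.2 CPM, against 26.1 ± 5.87 CPM in stress and 2.68 ± 1.43 CPM in no-stress tumours (n = 5 each). RASSF4, whose exons overlap DEPP1 on the opposite strand, had 404 counts in all libraries, beside 3342 for DEPP1. Opposite-strand genes over IRS2, PIK3IP1 and BCL6 were lower still, with at most 2, 29 and 155 counts, and whether counting used strand is not given in the sources used here.

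PCK1, the cytosolic enzyme that commits carbon to glucose synthesis, lies at chr20:57561080-57568112 (plus strand) and is best known from liver, kidney and fat. Its levels were 1.66, 3.70, 9.90, 8.86 and 12.3 CPM in stress tumours, 6.77, 3.28, 0.982, 1.98 and 2.00 CPM in post-stress tumours, and 0.211, 1.26, 0, 1.07 and 2.01 CPM in no-stress tumours. Stress tumour 1 lay inside the no-stress range and the other 4 above it, while 2 of the 5 post-stress tumours were above it. These levels rest on few reads, from 22 to 175 counts per stress library, 14 to 98 per post-stress library and 0 to 27 per no-stress library. The stress ratio was 8.07 with a wide interval (2.56 to 25.5), and the post-stress ratio was 3.33 (1.04 to 10.6).

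The only human cells placed in these mice were A549, so human genes that mark other tissues do not measure human cells of such tissues. Whether their counts came from A549 or from mouse reads counted on human rows was not tested. The same holds for the leukocyte and stroma genes above and the muscle and B-cell genes below. Genes that mark the tissues that normally make PCK1 had summed levels that overlapped between the groups. The summed level of 8 adipocyte genes was 26.9 to 55.2 CPM in stress, 22.0 to 48.0 CPM in post-stress and 36.0 to 40.8 CPM in no-stress tumours, with ADIPOQ, LEP and LPL at 0 in every tumour. One of them, the lipid droplet protein PLIN1, rose in stress tumours (3.89 against 1.91 CPM in no-stress tumours, edgeR adjusted p = 0.0216). The 8 hepatocyte and kidney tubule genes summed to 71.7 to 289 CPM in stress, 72.8 to 199 CPM in post-stress and 86.7 to 329 CPM in no-stress tumours, with UMOD at 0. These sums do not measure mouse reads, whose part in the PCK1 values was not tested.

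TXNIP encodes an arrestin-like protein that restrains glucose uptake and binds thioredoxin, and it is also induced by glucose through MLXIP and MLXIPL. The gene lies at chr1:145992435-145996600 (minus strand). It was at 135, 220, 157, 75.2 and 113 CPM in stress tumours, at 81.5, 54.1, 46.4, 86.7 and 152 CPM in post-stress tumours, and at 75.0, 87.6, 60.6, 93.1 and 87.7 CPM in no-stress tumours. Stress tumour 4 lay inside the no-stress range, and post-stress tumours lay on both sides of it, 2 below and 1 above. Ratios to no stress were 1.73 (95% interval 1.07 to 2.81) for stress and 1.04 (0.643 to 1.69) for post-stress. Neither MLXIP (24.0 CPM in stress and 25.1 CPM in no-stress tumours, adjusted p = 0.737) nor MLXIPL (0.779 and 1.47 CPM, adjusted p = 0.172) nor their partner MLX (75.1 and 66.5 CPM, adjusted p = 0.138) passed the edgeR test for stress.

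**Figure D1:**
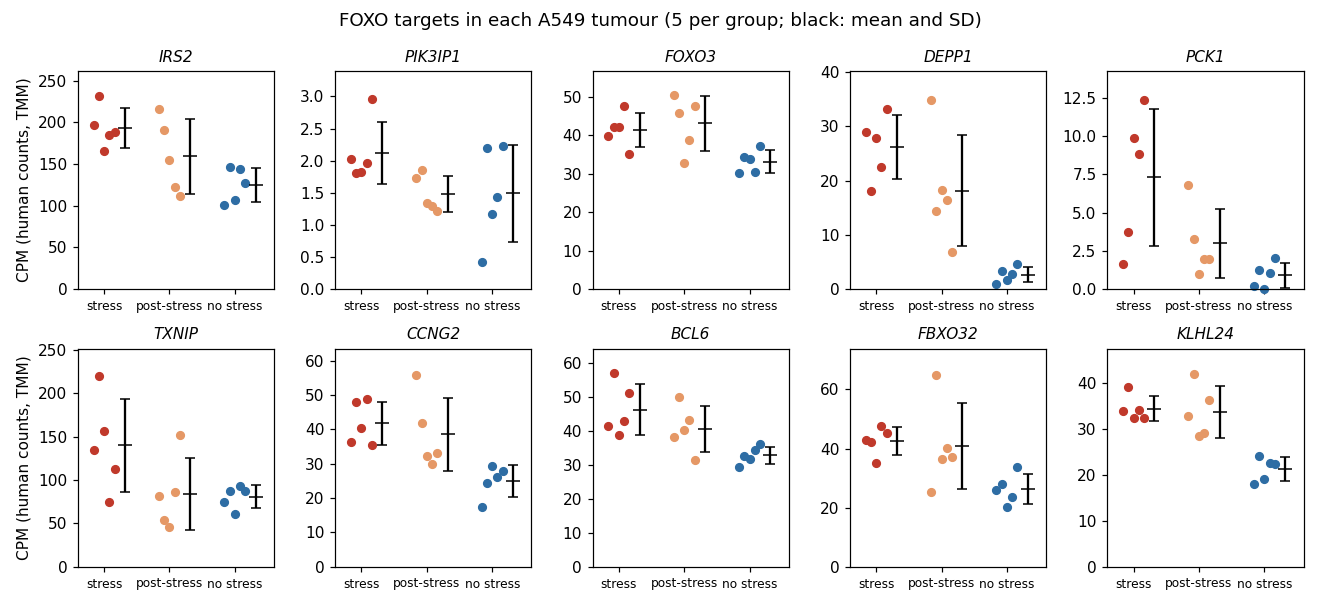
Level of each FOXO target in every tumour, with 1 panel per gene; the vertical axis is CPM of human counts, the horizontal axis gives the groups, coloured points are tumours 1 to 5 from left to right, and black marks are the mean and SD of 5. All DEPP1 values of stress and post-stress tumours lie above those of no-stress tumours, the groups of KLHL24 and CCNG2 are also apart from no stress, and those of PIK3IP1 overlap.

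CCNG2, an atypical cyclin that accompanies exit from the cell cycle (chr4:77157151-77433388, plus strand), had 36.4, 47.9, 40.5, 48.8 and 35.6 CPM in stress tumours, 55.9, 41.9, 32.2, 29.8 and 33.3 CPM in post-stress tumours, and 17.5, 24.3, 29.4, 26.1 and 28.0 CPM in no-stress tumours. Both restrained groups were above every no-stress tumour, although post-stress tumour 4 exceeded no-stress tumour 3 by less than 1 CPM. The ratio was 1.67 (95% interval 1.30 to 2.15) for stress and 1.54 (1.20 to 1.98) for post-stress.

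BCL6, a transcriptional repressor best known from germinal-centre B cells (chr3:187721377-187745727, minus strand), stood at 41.4, 57.0, 38.6, 43.0 and 51.2 CPM in stress tumours, at 38.1, 49.9, 40.3, 43.3 and 31.5 CPM in post-stress tumours, and at 29.4, 32.6, 31.7, 34.3 and 36.1 CPM in no-stress tumours. Stress tumours were all above no-stress tumours, and post-stress tumour 5 was inside the no-stress range. The ratio was 1.41 (95% interval 1.18 to 1.68) for stress and 1.24 (1.04 to 1.48) for post-stress. The human B-cell gene MS4A1 was at 0 in every tumour.

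FBXO32, also called atrogin-1, is the substrate-binding part of a ubiquitin ligase that drives protein loss in wasting muscle, and its gene lies on chromosome 8. It had 42.9, 42.3, 35.1, 47.7 and 45.4 CPM in stress tumours, 25.2, 64.9, 36.6, 40.2 and 37.2 CPM in post-stress tumours, and 26.1, 27.9, 20.2, 23.6 and 33.9 CPM in no-stress tumours. Stress tumours again did not overlap the no-stress group, while post-stress tumour 1 lay within it and post-stress tumour 2 was the highest of all. The ratio was 1.62 (95% interval 1.21 to 2.17) for stress and 1.55 (1.16 to 2.08) for post-stress. Human muscle genes were low: 9 of 10 were found, TNNT3 was at 0, and their sum was 8.37 to 14.1 CPM in stress, 7.86 to 18.0 CPM in post-stress and 7.66 to 13.4 CPM in no-stress tumours.

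KLHL24, an adaptor of cullin-3 ubiquitin ligases that controls keratin turnover in skin, lies at chr3:183635568-183684477 (plus strand). It stood at 33.7, 39.0, 32.4, 34.1 and 32.4 CPM in stress tumours, at 32.7, 41.9, 28.3, 29.0 and 36.2 CPM in post-stress tumours, and at 18.0, 24.1, 19.1, 22.6 and 22.4 CPM in no-stress tumours. No tumour of a restrained mouse overlapped the no-stress group. The ratio was 1.62 (95% interval 1.37 to 1.90) for stress and 1.58 (1.34 to 1.87) for post-stress.

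In the fit across all human genes, 7 of the 10 genes were called higher in stress than in no-stress tumours (quasi-likelihood test of edgeR, p adjusted by Benjamini-Hochberg over all genes tested, threshold 0.05), beside 5.23% of all tested genes called higher and 10.5% called in either direction. The adjusted p was 0.00168 for DEPP1, 0.0025 for KLHL24, 0.0148 for CCNG2, 0.0158 for BCL6, 0.0267 for PCK1, 0.0269 for IRS2 and 0.0371 for FBXO32. FOXO3 (0.072), TXNIP (0.136) and PIK3IP1 (0.346) did not pass. Human mitochondrial genes took 2.91% to 4.33% of human counts in stress, 3.43% to 4.38% in post-stress and 4.00% to 4.48% in no-stress tumours. In all stress tumours but tumour 2 this share was below that of every no-stress tumour, and its part in the calls was not tested. All 5 stress tumours lay above all 5 no-stress tumours for 6 genes, beside 4.09% of all tested genes. The median log2 fold change was 0.70 over the 10 genes and -0.01 over all tested genes. Since these differences were known when the genes were listed, nothing is read from these counts.

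The calls of DEPP1 and KLHL24 held in each of 15 fits that left out 1 tumour and in 11 other settings, and those of BCL6 and CCNG2 in each of the 15. FBXO32 did not pass in 8 of the 15 fits without 1 tumour, those without stress tumour 1, 2, 4 or 5 (adjusted p = 0.077, 0.063, 0.0582 and 0.0693) or no-stress tumour 1, 2, 3 or 4 (0.0843, 0.054, 0.0902 and 0.0715). IRS2 did not pass without stress tumour 1 or 2 (0.0617 and 0.065) or no-stress tumour 1 or 3 (0.073 and 0.0701). PCK1 did not pass without stress tumour 3 or 5 (0.054 and 0.0563) or no-stress tumour 1 (0.0711). Without no-stress tumour 1 the count was 4 of 10. FOXO3 passed only without post-stress tumour 3 (0.0391) or with only the 2 groups in the fit (0.0381). Without no-stress tumours 1 and 5 together, 2 of the 10 genes were called, among 546 of all human genes against 1613 with them.

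Restraint after transplantation gave fewer calls over the whole genome, and 2 of the 10 genes, DEPP1 (log2 fold change 2.77, SE 0.44, adjusted p = 0.0103) and KLHL24 (0.66, SE 0.11, adjusted p = 0.00921), were called higher in post-stress than in no-stress tumours. Of all tested genes 0.596% were called higher and 0.842% in either direction. Tumours did not overlap for DEPP1, CCNG2 and KLHL24, that is 3 of 10 genes beside 1.57% of all tested genes. Among the others the adjusted p was 0.101 for CCNG2, 0.113 for FOXO3, 0.143 for FBXO32, 0.227 for BCL6, 0.311 for PCK1, 0.337 for IRS2, 0.954 for TXNIP and 0.997 for PIK3IP1. DESeq2's Wald test called 5 of the 10, adding CCNG2, FBXO32 and FOXO3. It also called more human genes in all, 504 against 130 by edgeR. The DEPP1 call ended with the mouse share of counts as a covariate (adjusted p = 0.0702) or with only the 2 groups in the fit (0.0561), and the KLHL24 call without no-stress tumours 1 and 5 (0.0686). FOXO3 passed without post-stress tumour 3 (0.0348), which made the count 3. Both comparisons share the same 5 no-stress tumours, so their values are given side by side and not as separate evidence.

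Stress and post-stress tumours were then compared with each other, a difference that does not involve the no-stress group. None of the 10 genes passed (edgeR adjusted p = 0.415 to 0.950), nor did any by DESeq2 or limma-voom, and 1, TXNIP, had an unadjusted p under 0.05, beside 0.0389% of all tested genes called and 11.1% with an unadjusted p under 0.05. TXNIP had 140 ± 53.9 CPM in stress and 84.2 ± 41.7 CPM in post-stress tumours (SD, n = 5 each), a ratio of 1.66 (95% interval 1.03 to 2.69). The ratio of DEPP1 was 1.44 (0.819 to 2.52) and that of PCK1 2.42 (0.868 to 6.75), intervals that include both no difference and a difference above 2-fold. Intervals were narrow for KLHL24, with a ratio of 1.02 (0.868 to 1.20), and FOXO3, with 0.959 (0.817 to 1.13). For FBXO32 the ratio was 1.05 (0.783 to 1.39), for CCNG2 1.08 (0.844 to 1.39), for BCL6 1.14 (0.957 to 1.35), for IRS2 1.22 (0.952 to 1.55) and for PIK3IP1 1.42 (0.885 to 2.29).

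**Figure D2:**
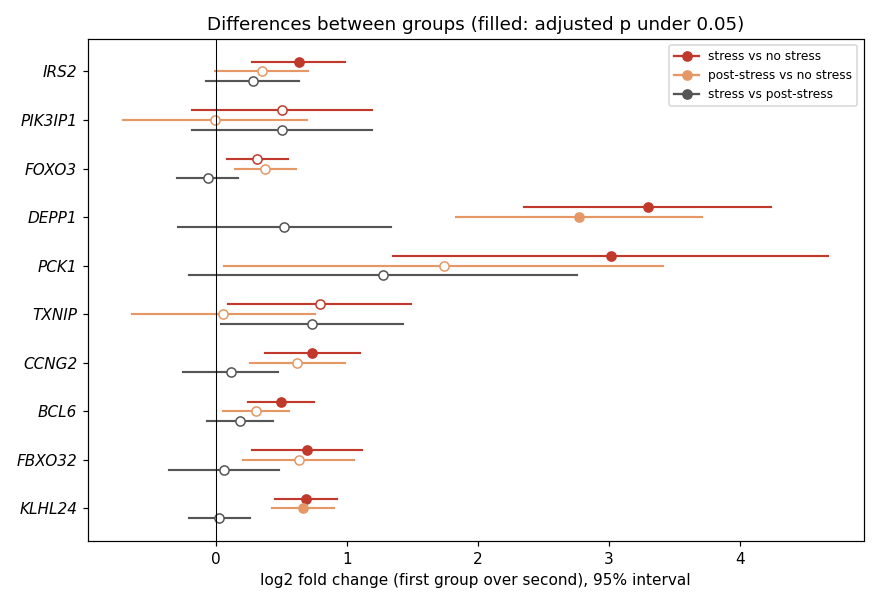
Log2 fold change of each FOXO target in the 3 comparisons, the first group over the second, with 95% intervals from the edgeR fit of 15 tumours; filled points have an adjusted p under 0.05. Filled points appear for 7 genes in stress against no stress and for DEPP1 and KLHL24 in post-stress against no stress, and every interval of stress against post-stress but that of TXNIP spans 0.

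Divided by the length of their exons (RPKM, CPM per kilobase of merged exons), the 10 genes spanned a wide range of levels. In stress tumours TXNIP (38.6 ± 14.9 RPKM) and IRS2 (23.8 ± 2.96 RPKM) led, followed by DEPP1 (8.78 ± 1.97), BCL6 (7.79 ± 1.28), FBXO32 (5.77 ± 0.638), CCNG2 (5.60 ± 0.837), FOXO3 (5.36 ± 0.575), KLHL24 (3.97 ± 0.318), PCK1 (1.07 ± 0.654) and PIK3IP1 (0.556 ± 0.127). The mean ± SD ranges overlapped between TXNIP and IRS2, between DEPP1 and BCL6, among FBXO32, CCNG2 and FOXO3, and between PCK1 and PIK3IP1. In post-stress tumours the order began with TXNIP (23.2 ± 11.5 RPKM), IRS2 (19.5 ± 5.47 RPKM), BCL6 (6.84 ± 1.14 RPKM) and DEPP1 (6.10 ± 3.46 RPKM). In no-stress tumours DEPP1 came after KLHL24 (2.46 ± 0.298 RPKM), at 0.898 ± 0.478 RPKM, with PIK3IP1 at 0.392 ± 0.199 and PCK1 at 0.134 ± 0.120 RPKM below it, and TXNIP (22.3 ± 3.62 RPKM) and IRS2 (15.3 ± 2.55 RPKM) again at the top (SD, n = 5 throughout).

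Tumours within a group also differ, and this variation was not used to list the genes. Levels of each pair of genes were compared after the group mean of log2 CPM was removed, over 15 tumours and 45 pairs. Pearson's r was positive for 36 of the 45 pairs, with a median of 0.31 and a range from -0.22 to 0.76. Over all pairs of the 15435 tested genes, centred in the same way, 49.8% were positive. The 10 genes share these libraries and were listed with earlier results known, so the counts are a description. The highest was that of DEPP1 and PIK3IP1, with r = 0.765 (permutation p = 0.00111, adjusted over 45 pairs 0.0499) and Spearman's rho = 0.825 (p = 0.00117, adjusted 0.0526). Without the 2 tumours farthest from the median of DEPP1, r was 0.650. CCNG2 and FOXO3 followed with r = 0.690 (p = 0.0127, adjusted 0.226), rho = 0.732 (p = 0.0059, adjusted 0.133), and 0.617 without the 2 farthest tumours. Of the 45 pairs, 8 had an unadjusted p under 0.05 and 1 an adjusted one. TXNIP varied apart from the others, with r between -0.22 and 0.31 to every other gene. PIK3IP1 values rest on 6 to 42 counts per library.

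**Figure D3:**
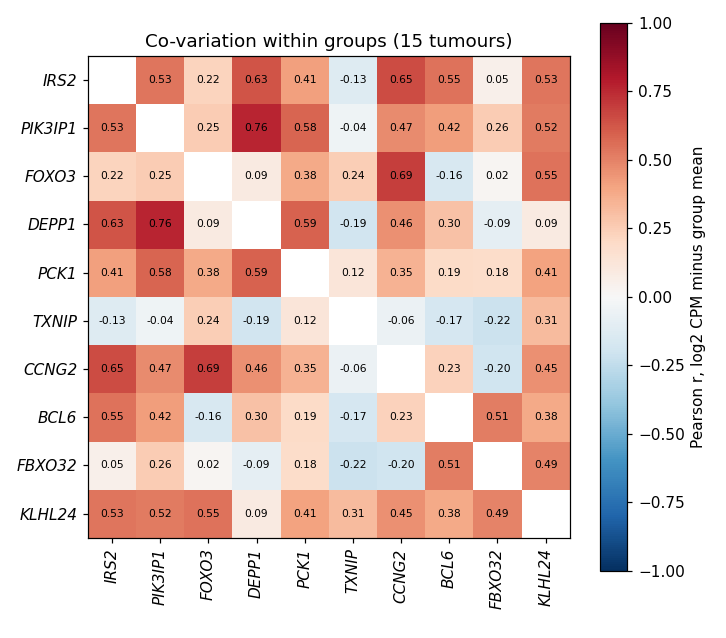
Pearson's r between the FOXO targets within groups; both axes list the genes, and each cell gives r of log2 CPM minus the group mean over 15 tumours, from -1 in blue to 1 in red. IRS2, PIK3IP1, DEPP1 and PCK1 are joined by positive values of 0.41 to 0.76, and the row of TXNIP holds values from -0.22 to 0.31.

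The mouse share of counts, which tracks the amount of host tissue, was compared with each gene in the same way. No relation passed adjustment over the 10 genes. CCNG2 had r = -0.623 (permutation p = 0.0264, adjusted 0.264), rho = -0.568 (p = 0.0475, adjusted 0.202), and r = -0.424 without the 2 tumours farthest from the median. IRS2 had r = -0.573 (p = 0.0542, adjusted 0.271), rho = -0.550 (p = 0.0605, adjusted 0.202) and -0.429. The 7 calls for stress stayed 7 with the mouse share as a covariate. Whether mouse reads were counted on human rows of these genes was not tested.

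Over all 15 tumours, the 4 genes of 12648 compared whose log2 CPM was most like that of DEPP1 were ENO2, an enolase (Pearson's r = 0.977; 0.860 within groups), NDRG1 (0.973; 0.886 within groups), ADM, the adrenomedullin precursor (0.966; 0.862), and HK2, a hexokinase (0.965; 0.827). ENO2 stood at 163 ± 19.9 CPM in stress, 129 ± 25.7 CPM in post-stress and 63.7 ± 9.76 CPM in no-stress tumours. NDRG1 had 880 ± 134 CPM in stress, 841 ± 338 CPM in post-stress and 233 ± 90.7 CPM in no-stress tumours (SD, n = 5 each). For IRS2 the 4 were GID4 (0.910; 0.863 within groups), ERRFI1, an inhibitor of the EGF receptor (0.910; 0.877), NFIL3 (0.905; 0.832) and MCL1, an anti-apoptotic BCL2 relative (0.904; 0.843). These are the highest of many correlations and are given as a description, without a test.

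**Figure D4:**
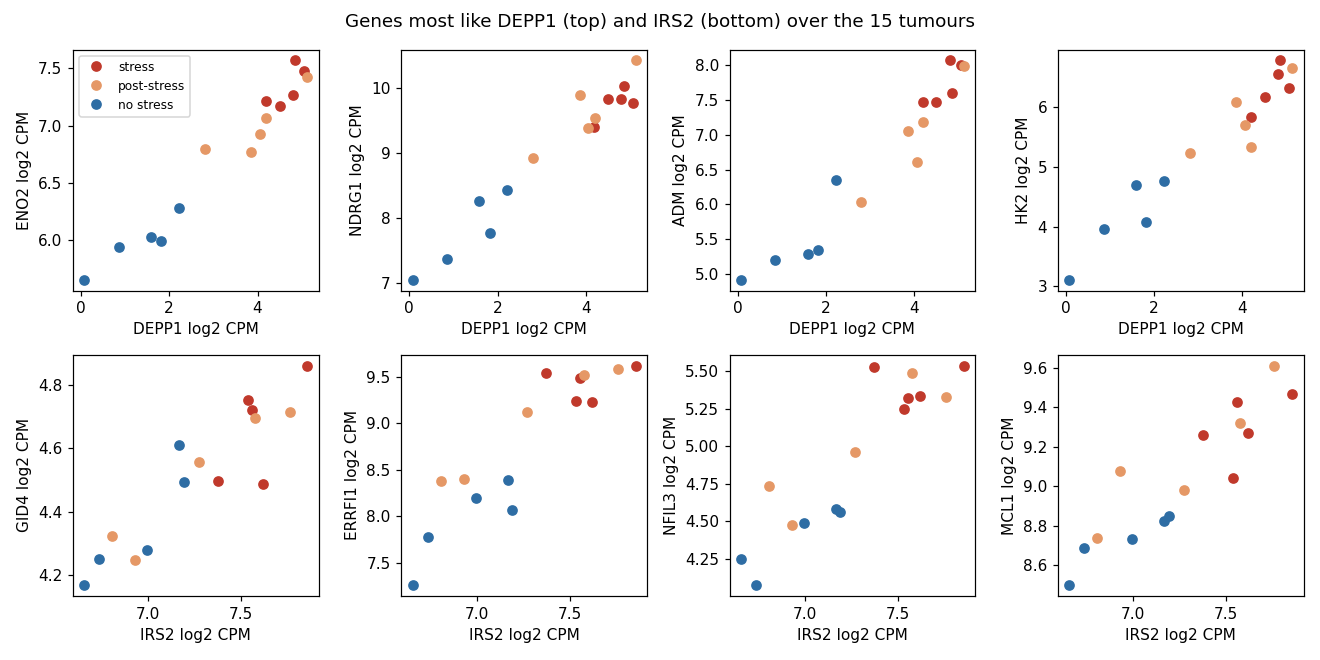
Log2 CPM of the 4 genes most like DEPP1 (top row) and of the 4 most like IRS2 (bottom row), on the vertical axes, against log2 CPM of DEPP1 or IRS2 on the horizontal axes; each point is a tumour, coloured by group. For DEPP1 the no-stress tumours sit at the lower left and restrained mice at the upper right, and for IRS2 post-stress tumours are spread over the ranges of both other groups.

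Other genes known as FOXO targets were taken from a list of 30, of which 26 were tested and 4 were not (G6PC1, TRIM63 and PPARGC1A under the filter, and SOD2, whose symbol belongs to more than 1 identifier). In stress tumours 11 of the 26 rose against no stress and 15 did not pass, beside 5.23% of all tested genes called higher. The median log2 fold change was 0.34, with a range from -1.46 to 2.39 and positive values for 20 of the 26. This list and those below were drawn up with earlier results of these tumours known, so their counts are a description. IGFBP1, a secreted binding protein of insulin-like growth factors and a classical insulin-repressed gene, had 382 ± 27.9 CPM in stress, 178 ± 64.5 CPM in post-stress and 73.0 ± 20.1 CPM in no-stress tumours (SD, n = 5 each). Its log2 fold change was 2.39 for stress (edgeR adjusted p = 1.01e-04), with every stress tumour above every no-stress tumour.

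The rises in stress tumours included cell cycle brakes, CDKN1B, which encodes the inhibitor p27 (log2 fold change 0.58, adjusted p = 0.00287), and MXI1, an antagonist of MYC (1.12, 0.00456). The growth arrest gene GADD45B (1.30, 0.00419), the mTORC2 subunit RICTOR (0.61, 0.00534), the coactivator-binding protein CITED2 (0.86, 0.00621) and the mitophagy receptor BNIP3 (0.91, 0.00736) rose as well, as did GABARAPL1 of the autophagosome membrane (0.46, 0.00853). The other 3 that rose had log2 fold changes of 0.34 to 0.71. For 9 of the 26 genes all stress tumours lay above all no-stress tumours, beside 4.09% of all tested genes. IGFBP1, CDKN1B, GADD45B, MXI1, RICTOR, CITED2 and BNIP3 passed in each of 15 fits without 1 tumour and in 11 other settings. GABARAPL1 lost its call without no-stress tumours 1 and 5 (adjusted p = 0.0631), where 8 of the list still passed.

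In post-stress tumours 5 of these 26 genes rose against no stress, beside 0.596% of all tested genes called higher, with a median log2 fold change of 0.28: IGFBP1 (1.29, edgeR adjusted p = 0.0115), MXI1 (1.09, 0.0193), the apoptosis gene BBC3 (0.58, 0.0394), BNIP3 (0.84, 0.0436) and GADD45B (1.00, 0.0491). The count depended on single tumours. It was 1 without no-stress tumour 1 or 3 or post-stress tumour 2, 2 without post-stress tumour 1, and 3 without no-stress tumour 2 or 4, post-stress tumour 3 or stress tumour 2, 3 or 4. It was also 1 without no-stress tumours 1 and 5 together and 0 with the mouse share as a covariate. Between stress and post-stress tumours none of the 26 passed by edgeR (smallest adjusted p 0.0791, for IGFBP1). An unadjusted p under 0.05 was found for 4, beside 11.1% of all tested genes, and DESeq2 called 1 among its 203 human genes.

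Of the FOXO factors besides FOXO3, FOXO1 rose in stress tumours, at 16.8 ± 4.57 CPM in stress, 13.1 ± 1.68 CPM in post-stress and 8.72 ± 1.10 CPM in no-stress tumours (SD, n = 5 each; log2 fold change 0.95, edgeR adjusted p = 0.00391). Its difference for post-stress had an adjusted p of 0.112. FOXO4 stood at 9.35 CPM in stress, 11.5 CPM in post-stress and 11.0 CPM in no-stress tumours (adjusted p = 0.237 for stress), and FOXO6 was under the filter. Among relatives of the 10 genes, 12 of 15 were tested and 2 rose in stress tumours, FOXO1 and ARRDC3, beside 5.23% of all tested genes. ARRDC3, an arrestin-like relative of TXNIP, had 259 ± 50.3 CPM in stress, 189 ± 24.6 CPM in post-stress and 104 ± 21.2 CPM in no-stress tumours (adjusted p = 1.98e-04 for stress and 0.00921 for post-stress). Both its calls held in each of 15 fits without 1 tumour and in 11 other settings. ARRDC4, another relative of TXNIP, did not pass (9.34 CPM in stress and 6.49 CPM in no-stress tumours, adjusted p = 0.277), nor did CCNG1, the relative of CCNG2 (101 and 102 CPM, adjusted p = 0.902).

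From the insulin receptor to AKT, 31 of 32 genes were tested, with RICTOR also on the list of other FOXO targets. In stress tumours 2 rose, RICTOR and the adaptor GRB10 (log2 fold change 0.41, edgeR adjusted p = 0.0451), and 4 fell: the PI3-kinase regulatory subunit PIK3R3 (-1.05, 0.0128), the AKT phosphatase PHLPP2 (-0.41, 0.027), MTOR (-0.26, 0.0335) and the catalytic subunit PIK3CB (-0.26, 0.0373). These counts stand beside 5.23% of all tested genes called higher and 5.22% called lower, so the share of the 31 that rose was close to that of all genes. The median over the 31 was -0.08. INSR, the insulin receptor (adjusted p = 0.915), IRS1 (0.699), IGF1R (0.201), PIK3R1 (0.331) and SGK1 (0.116) did not pass. Without stress tumour 1, 2 or 5 or no-stress tumour 1 or 3, all but RICTOR and PIK3R3 lost their calls (adjusted p up to 0.132). The count of 6 was 2 without stress tumour 1, 2 or 5 or no-stress tumour 1 or 3, 3 without stress tumour 3, and 1 without no-stress tumours 1 and 5. RICTOR and PIK3R3 passed in all 15 fits without 1 tumour, and SGK1 passed without no-stress tumour 5 (0.0424). In post-stress tumours none of the 31 passed by edgeR, 8 had an unadjusted p under 0.05 beside 15.2% of all tested genes, and DESeq2 called 2 among its 504 human genes.

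A list of 12 genes that insulin normally raises was followed as well. Of the 11 tested, 4 fell in stress against no-stress tumours, beside 5.22% of all tested genes called lower, among them the malic enzyme ME1 (log2 fold change -0.49, edgeR adjusted p = 0.0085), the fatty acid elongase ELOVL6 (-0.74, 0.0133) and the fatty acid synthase FASN (-0.47, 0.0223). The median log2 fold change was -0.36 over the 11 genes. FASN had 246 ± 34.7 CPM in stress, 292 ± 42.6 CPM in post-stress and 341 ± 53.2 CPM in no-stress tumours (SD, n = 5 each). ME1 and ELOVL6 passed in each of 15 fits without 1 tumour. FASN did not without stress tumour 1, 2 or 3 or no-stress tumour 1 or 3, with adjusted p up to 0.0715. The count was 2 without stress tumour 1 or 3 or no-stress tumour 1 or 3, and 2 without no-stress tumours 1 and 5. In post-stress tumours none passed by edgeR, DESeq2 or limma-voom, 4 had an unadjusted p under 0.05 beside the same 15.2%, and the median was -0.22.

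Of 16 tested regulators and cofactors of FOXO proteins, 3 fell in stress tumours: FOXM1, a forkhead factor of dividing cells (log2 fold change -0.47, edgeR adjusted p = 0.0345), the deubiquitinase USP7 (-0.22, 0.0383) and SKP2, a ubiquitin ligase part that targets FOXO1 (-0.36, 0.0441). Of all tested genes 5.22% were called lower. None of the 3 was called without stress tumour 1, 2 or 3 or no-stress tumour 1 or 3. In post-stress tumours none of the 16 passed by edgeR, DESeq2 or limma-voom, and 2 had an unadjusted p under 0.05, no larger a share than the 15.2% of all tested genes. Of 5 tested gluconeogenesis genes besides PCK1, GOT1 fell (-0.28, adjusted p = 0.0374). Its call ended without stress tumour 1, 3, 4 or 5 or no-stress tumour 1, 3 or 4 (adjusted p up to 0.131). PCK2, the mitochondrial relative of PCK1, had 1.86 CPM in stress, 0.913 CPM in post-stress and 1.80 CPM in no-stress tumours (adjusted p = 0.978 for stress).

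**Figure D5:**
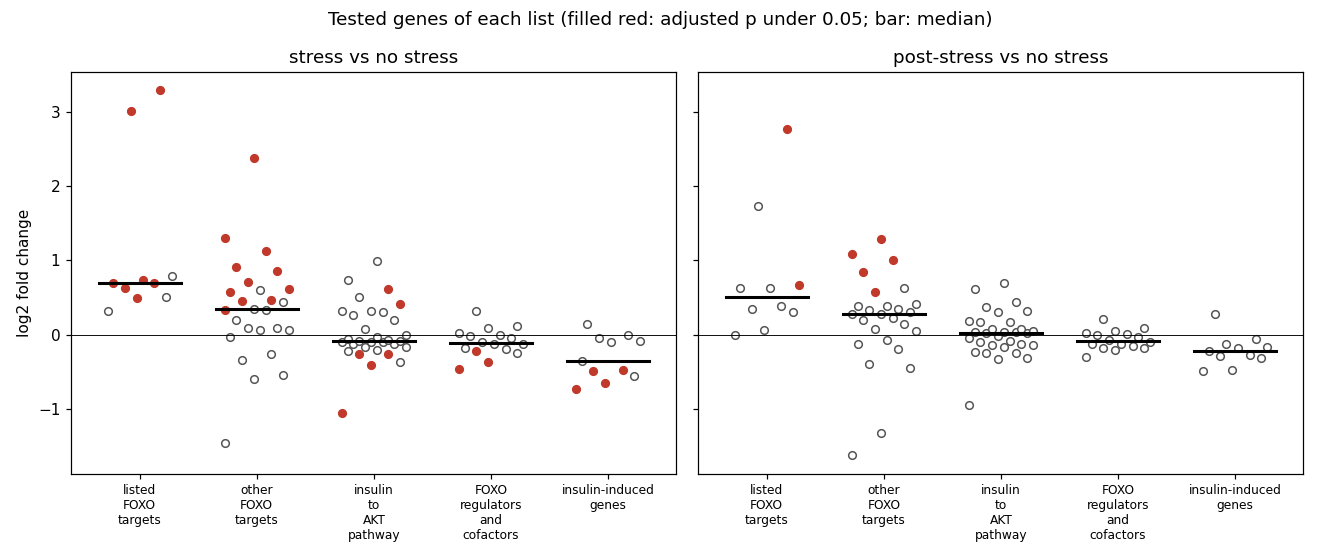
Log2 fold change of every tested gene of 5 lists, on the vertical axis, for stress against no stress (left) and post-stress against no stress (right); filled red points have an adjusted p under 0.05 and bars are medians. In stress tumours the bars lie at 0.70 for the 10 listed genes, 0.34 for other FOXO targets, -0.08 for the insulin to AKT pathway and -0.36 for insulin-induced genes.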

How the data were processed

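RNA from 15 A549 tumours (5 per group, groups from the sample titles) was sequenced by the authors. Per the submitters' processing notes, the authors trimmed reads with Trimmomatic (0.39), aligned them with HISAT2 (2.2.1) to hg38 and mm10, and counted them with featureCounts (2.0.6). The deposited values are raw counts per gene for 60649 human and 56941 mouse genes. The strand setting, the annotation release and whether alignment was joint for the 2 genomes were not given in the sources used here. The labels name no batch or date. Per the labels' protocols, TRIzol was used for extraction and an Abclonal Fast RNA-seq kit for libraries.

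Human counts were filtered (filterByExpr, 15435 genes, 99.8% of human counts), scaled with TMM and fitted over 15 libraries with edgeR's quasi-likelihood test (4.0.16, R 4.3.3), with Benjamini-Hochberg adjustment over all genes and a threshold of 0.05. The biological coefficient of variation was 0.187. The procedure was tested on simulated data. Ratios are 2 to the power of the fitted log2 fold change, and intervals are 95% t intervals from its SE. Symbols came from a reference table (60463 of 60649 rows), coordinates and merged exon lengths from GENCODE 29, promoters from RefSeq. Correlations used log2 CPM (prior count 2) and 100000 permutations within groups, 2-sided. Alternatives were DESeq2's size factors and Wald test (1.42.0), limma-voom (3.58.1), unscaled and both-species library sizes, no filter, a CPM of at least 1 in 5 libraries, the replicate number as a block, the mouse share as a covariate, only the groups compared, and each library left out.

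The 10 genes and all gene lists were chosen with earlier results of these data known. Named are the 10 genes, up to 8 called genes per list and comparison by smallest p, 12 genes named in every case, and the 4 genes most like DEPP1 and IRS2. Values of some genes in these lists are not reported here. Each group holds tumours of 5 mice per the labels. Libraries of a group differed by more than counting noise (30 pairs). Intervals give the uncertainty of a ratio between groups, from the variation between these tumours, and not the range of single tumours.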

Additional observations from a re-analysis of the deposited data

Results flagged for a closer look

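In 2 of 30 sets of 5 values (10 genes in 3 groups) 1 tumour lay apart from the other 4, by a gap whose share of the range exceeds the critical value of Dixon's test. PIK3IP1 stood at 2.96 CPM in stress tumour 5, against 1.81 to 2.03 CPM in the other stress tumours (gap over range 0.809). KLHL24 stood at 39.0 CPM in stress tumour 2, against 32.4 to 34.1 CPM in the others (gap over range 0.747). Chance marks about 1 in 20 such sets.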

How the results depend on the processing

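Replicate numbers did not pair the tumours: over 15 same-numbered pairs, deviations from group means correlated at -0.191 to 0.124, and 1 of 15 libraries correlated best with its own number. With the replicate block, called human genes were 990 for stress against no stress, 57 for post-stress against no stress and 0 for stress against post-stress, and the listed genes called were 5 and 1 against no stress; other FOXO targets called for post-stress were 2 and insulin to AKT genes for stress 2. Library size over both species gave 1070, 86 and 3 human genes and 3 insulin to AKT genes. Without no-stress tumours 1 and 5, these were 546 and 32 human genes against no stress, 2 and 1 of the listed genes, 1 other FOXO target for post-stress and 1 insulin to AKT gene for stress. Without a filter, 4 listed genes were called for stress, 36 human genes for stress against post-stress and 1 insulin to AKT gene for post-stress. DESeq2's Wald test called 504 human genes, 5 listed genes, 8 other FOXO targets and 2 insulin to AKT genes for post-stress against no stress, and 203, 0, 1 and 1 for stress against post-stress. With the mouse share as covariate, 38 human genes, 1 listed gene and 0 other FOXO targets were called for post-stress against no stress, and 0 human genes for stress against post-stress. With only the groups compared these were 49, 1, 1 and 1, and 3 insulin to AKT genes for stress. Human library size alone left 3 other FOXO targets for post-stress. It called 664 human genes higher and 986 lower for stress (TMM 807 and 806), and 59 and 62 for post-stress (TMM 92 and 38); both-species size called 75 and 11 there. The cause of these shifts was not tested.

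Leaving out 1 tumour gave 661 to 1834, 37 to 144 and 0 to 189 human genes in the 3 comparisons, 4 to 8, 2 to 3 and 0 to 0 listed genes, 10 to 13, 1 to 6 and 0 to 1 other FOXO targets, and 2 to 7 insulin to AKT genes for stress.

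Signs turned only where no call was made. For post-stress against no stress, TXNIP was -0.054 by limma-voom, and PIK3IP1 was 0.0031 with DESeq2 size factors, 0.0036 by DESeq2, 0.18 by limma-voom, 0.0085 without a filter, 0.0036 with the CPM filter, 0.038 with both-species size, 0.075 with the replicate block and 0.0041 with only the groups compared (log2). For stress against post-stress, FBXO32 was -0.026 with the mouse share and KLHL24 -0.018 with both-species size. Fits without 1 tumour gave ranges across 0 for TXNIP (-0.260 to 0.212) and PIK3IP1 (-0.233 to 0.189) in post-stress against no stress, for FBXO32 (-0.071 to 0.289), KLHL24 (-0.027 to 0.115) and FOXO3 (-0.144 to 0.00011) in stress against post-stress, and for CCNG1 (-0.072 to 0.048), INSR (-0.069 to 0.038) and PCK2 (-0.273 to 1.60) in stress against no stress. INSR was 0.032 and PCK2 -0.37 for stress without no-stress tumours 1 and 5. PCK1 lost its stress call by limma-voom (adjusted p = 0.0503), without a filter (0.067) and with the block (0.0667), IRS2 with both-species size (0.0589) and without a filter (0.0938), FBXO32 with human library size alone (0.052) and without a filter (0.112), CCNG2 with the block (0.0511), and DEPP1 its post-stress call with the block (0.069).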
